A study of Mus musculus with 12 samples.

Results

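Mouse embryonic stem cells (ESC), lines taken from the blastocyst, were compared with the epiblast of the embryo after implantation, the tissue that gives rise to all cells of the fetus. Of the 12 expression microarrays of the study, 6 enter the comparison: 2 of ESC, 2 of epiblast at embryonic day (E) 5.75 and 2 of epiblast at E6.5. The tissue value is the mean of the E5.75 and E6.5 group means, so that each stage weighs equally. Results are given for the 21062 autosomal genes among 22180 genes that a probe set names alone. The ESC were derived at E3.5 from a cross labelled OCT4-deltaPE-GFP x C57BL/6 and were at passages 20 to 25. They were kept on mouse embryonic fibroblasts, in N2B27 medium with LIF, the GSK3 inhibitor CHIR99021 at 3 µM and the MEK inhibitor PD0325901 at 1 µM. The tissue was epiblast taken at E5.75 and E6.5 and not cultured. Its strain field names the same reporter, but the number in it counts up from array to array and was not used. From every sample 100 ng of total RNA was amplified and labelled. The remaining 6 arrays hold cultured lines from the epiblast after implantation (EpiSC from E5.75 embryos, and rsEpiSC from both stages). The labels give FGF2 at 12 ng/ml and Activin A at 20 ng/ml for EpiSC, and IWR1 at 2.5 µM for rsEpiSC. They are used to show where ESC and tissue stand relative to other cultured cells. Nothing in the labels says that replicate arrays come from separate cultures, embryos or litters. The p-values thus reflect no more than the spread between arrays of a group, pooled over all groups of the study. That spread may be technical.

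Naive pluripotency is the state of the epiblast before implantation, and ESC hold it in culture. LIF acts through the kinase JAK and the factor STAT3, GSK3 inhibition mimics Wnt signalling, and MEK inhibition blocks the FGF signal that drives cells out of the naive state. After implantation the epiblast becomes an epithelium on a basement membrane, switches on Fgf5, Otx2 and the de novo DNA methyltransferases, and prepares for gastrulation, when the primitive streak forms mesoderm and endoderm. Culture and tissue differ in more than this state: the cells grow on feeders in defined medium, and the tissue is dissected from the embryo. These cannot be told apart from the state in a comparison of ESC with tissue alone, so the levels in the other cultured lines are given beside the results. In such bulk samples fewer cells of a type and less RNA per cell cannot be told apart.

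All values are log2 signals, and differences are ESC minus tissue ± the standard error of the fit, so that 1 unit is a 2-fold difference. A gene passed where limma gave an adjusted p under 0.05. In all, 5445 of 21062 genes passed (25.9%), 2671 higher in ESC (12.7%) and 2774 lower (13.2%). Of these, 1969 and 1255 differed by at least 2-fold. Counts of list members below are to be read against the shares of 12.7% and 13.2%. The ESC arrays did not overlap the tissue arrays for 8645 genes (41%): both lay above all 4 for 3574 (17%) and below them for 5071 (24.1%). The tissue arrays had a narrower spread of signals: the interquartile range over genes was 2.22 to 2.68 on them and 3.07 to 3.19 on the ESC arrays, and their dim genes sat higher. Above a log2 signal of 5 on at least 2 arrays the shares were 22.5% and 12.9% of 11286 genes. Of the 2774 genes lower in ESC, 1371 had a mean under 5 in both groups, against 105 of the 2671 higher in ESC. The median difference over all autosomal genes was -0.17, and 0.13 over the genes above that signal. Tested over the genes above that signal, 2732 were higher and 1582 lower. With every array centred and scaled to 1 interquartile range, 1778 were higher and 3185 lower, and the bright genes moved towards tissue. Without ESC replicate 2, 3149 genes passed (1950 higher and 1199 lower), and without ESC replicate 1, 3594 did (1979 and 1615). A fit on the 6 arrays alone passed 2860 (1690 and 1170).

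**Figure D1:**
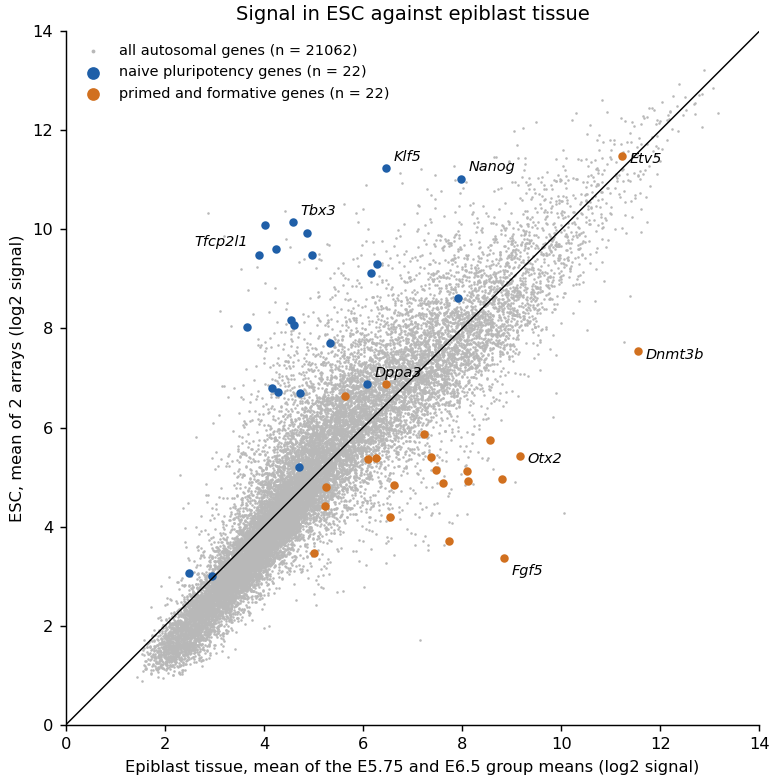
Mean log2 signal in ESC (vertical, 2 arrays) against epiblast tissue (horizontal, mean of the E5.75 and E6.5 group means) for 21062 autosomal genes, 1 point a gene, with the 22 naive pluripotency genes in blue, the 22 primed and formative genes in orange, and the line of equal signal. Naive genes such as Klf5 and Tfcp2l1 lie far above the line and primed genes such as Fgf5 and Otx2 far below it, while Etv5 and Dppa3 lie near it.

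All 36 lists were chosen with earlier results of these data known, so their counts only describe the members. The naive pluripotency list had the largest median difference of them. Of 22 members, 18 were higher in ESC, none was lower (12.7% and 13.2% over all genes), and after the arrays were scaled 18 were higher, 17 of them the same genes (Sall4, which codes for a zinc finger factor, was lost and Spic gained). Sall4 was near the threshold (0.70 ± 0.23, adjusted p = 0.0426) and did not pass without ESC replicate 1 or 2, epiblast E5.75 replicate 2, or epiblast E6.5 replicate 1 or 2 (adjusted p = 0.213, 0.0775, 0.068, 0.0629 and 0.085). The median difference of the list was 3.04, against -0.17 over all genes. Tfcp2l1, a transcription factor gene downstream of LIF and STAT3, stood at 9.34 and 9.61 on the ESC arrays, 3.85 and 3.99 at E5.75 and 4.08 and 3.70 at E6.5. The ESC arrays lay more than 5 units above every tissue array, a difference of 5.57 ± 0.25, adjusted p = 2.22e-07. Tbx3, a T-box factor of the naive network, read 9.90 and 10.41 on the ESC arrays, 4.09 and 4.82 at E5.75 and 4.73 and 4.68 at E6.5, with the same separation (5.57 ± 0.25). Klf4 and Klf5, Krüppel-like factors that hold the naive state, gave 9.39 and 9.56 and 11.21 and 11.27 in ESC, while their tissue arrays lay between 4.72 and 5.27 and between 6.02 and 6.93. Their differences were 4.51 ± 0.24 and 4.77 ± 0.26, and that of Klf2, the third such factor, was 2.37 ± 0.22. Zfp42, also called Rex1 and a common marker of ESC, read 10.47 and 9.39 on the ESC arrays, 4.04 and 5.40 at E5.75 and 4.98 and 5.02 at E6.5 (5.07 ± 0.36). Esrrb, an orphan nuclear receptor gene, was dimmer, at 6.62 and 6.80 in ESC and at most 4.75 in tissue (2.43 ± 0.27). The largest difference of the list belonged to Jam2, a junctional adhesion molecule gene (6.06 ± 0.32), and Fbxo15, a target of Oct4 and Sox2, followed at 5.35 ± 0.26.

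In 15 of the 22 members both ESC arrays were above all 10 other arrays of the study, cultured lines included, as was the case for 5.05% of all autosomal genes. Of the members that passed, Nr5a2, which codes for an orphan nuclear receptor, was nearly as bright in EpiSC (7.56) as in ESC (8.07), with 4.60 in tissue. The 4 members that did not pass were Dppa3, Gbx2, Spic and Stra8. Dppa3 (Stella), a maternal factor that protects DNA from demethylation, read 6.97 and 6.78 on the ESC arrays, 6.02 and 7.27 at E5.75 and 5.76 and 5.29 at E6.5, so the groups overlapped (0.79 ± 0.32, adjusted p = 0.0873). Without epiblast E5.75 replicate 2 it passed (adjusted p = 0.00793). Its means were 2.75, 2.77 and 3.21 in EpiSC and the E5.75 and E6.5 rsEpiSC, below every ESC and tissue array. Gbx2 gave 0.49 ± 0.22, adjusted p = 0.128. Spic passed after quantile normalization and after scaling (adjusted p = 0.0221 and 0.0119).

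**Figure D2:**
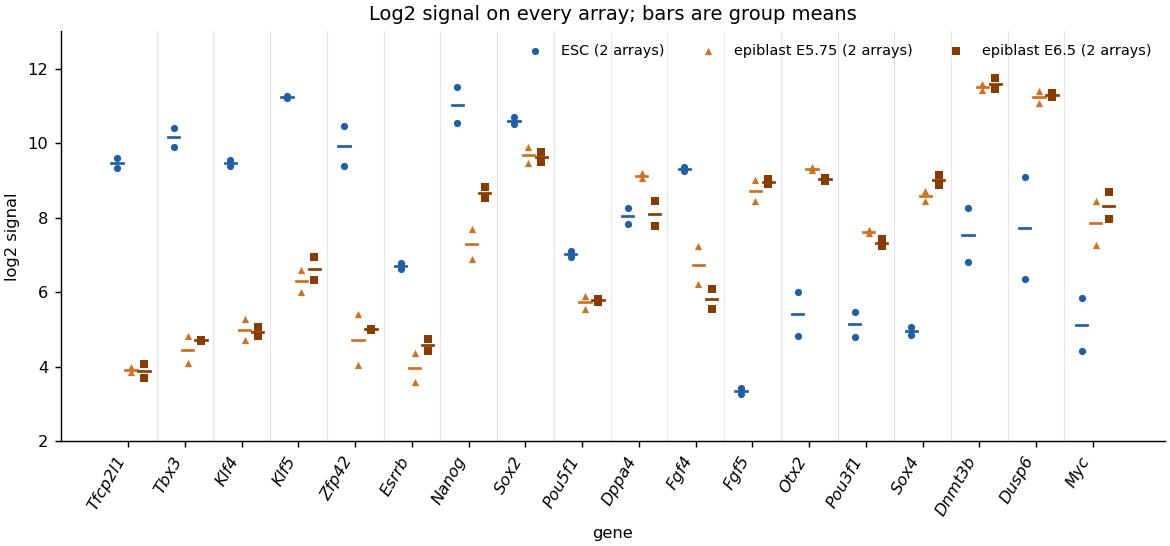
Log2 signal (vertical) of 18 genes (horizontal) on each of the 6 arrays: ESC as circles, epiblast E5.75 as triangles, epiblast E6.5 as squares, with bars at the group means of 2 arrays. Tfcp2l1 to Esrrb sit high in ESC and low on all 4 tissue arrays, Fgf5 to Myc the other way round, and Sox2, Pou5f1 and Dppa4 have smaller differences (0.94, 1.27 and -0.58).

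The pathways that the ESC medium acts on differed unevenly. In the LIF and STAT3 list 7 of 20 genes were higher in ESC and 2 lower (median 0.69). These are 35% and 10%, against 12.7% and 13.2% of all genes. Stat3 itself read 7.26 and 6.86 on the ESC arrays, 4.54 and 5.0 at E5.75 and 4.72 and 3.95 at E6.5 (2.51 ± 0.26, adjusted p = 5.46e-05), and Il6st, which codes for the shared receptor subunit gp130, differed by 1.54 ± 0.29. The receptor gene Lifr did not pass (0.65 ± 0.26, adjusted p = 0.0856), nor did the kinase gene Jak1 (0.49 ± 0.22, adjusted p = 0.122). Lifr passed without epiblast E5.75 replicate 1 (adjusted p = 0.0405) and Jak1 without E5.75 replicate 2 (adjusted p = 0.0498). Of 21 targets of Wnt and beta-catenin, 3 were higher in ESC (Tbx3, Apcdd1 and Kremen1) and 3 lower (Myc, Lef1 and Bambi), and the median was 0.06. These counts were near the shares over all genes. Apcdd1, a Wnt antagonist gene, did not pass without ESC replicate 1, and Kremen1, a receptor gene of Dickkopf proteins, did not pass without ESC replicate 2. Each kept its call under the other alternatives. Fewer genes of any kind passed without an ESC array. Bambi, a pseudoreceptor gene of the TGF-beta family, was near the threshold (-0.65 ± 0.22, adjusted p = 0.0453), and its call was lost under 10 of 16 alternatives, among them the replicate block (adjusted p = 0.0599) and leaving out ESC replicate 1 (adjusted p = 0.161) or 2 (adjusted p = 0.131). It was also lost without epiblast E5.75 replicate 1, E6.5 replicate 1 or E6.5 replicate 2 (adjusted p = 0.079, 0.0772 and 0.064). Lef1, a partner of beta-catenin, read 4.97 and 4.79 on the ESC arrays, 7.45 and 7.58 at E5.75 and 7.64 and 7.79 at E6.5, so that tissue was higher on every array (-2.74 ± 0.24, adjusted p = 1.27e-05). Axin2, the usual readout of the pathway, did not pass (-0.43 ± 0.26, adjusted p = 0.24). Among Wnt ligands and antagonists, 2 of 26 were higher in ESC and 3 lower (7.69% and 11.5%), no more than the shares over all genes. The secreted antagonist genes went in both directions, with Sfrp1 at 1.96 ± 0.30 and Sfrp2 at -1.96 ± 0.25.

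Of 20 genes downstream of FGF and ERK, which the MEK inhibitor blocks, 3 were lower in ESC and 1 higher, against 13.2% and 12.7% of all genes, with a median of -0.14. After scaling, 6 were lower and none higher. The 3 lower genes were Dusp6, Spred1 and Myc. Dusp6, a phosphatase gene that ERK induces and that switches ERK off, read 9.09 and 6.35 on the ESC arrays, 11.41 and 11.06 at E5.75 and 11.34 and 11.24 at E6.5. The ESC arrays differed from each other by nearly 3 units, yet both lay below every tissue array (-3.55 ± 0.51, adjusted p = 0.000482). Spred1, another feedback inhibitor gene, was at 5.56 and 4.81 in ESC and between 7.16 and 7.76 in tissue (-2.35 ± 0.29). Myc, a growth factor target and oncogene, read 5.84 and 4.41 on the ESC arrays, 7.27 and 8.44 at E5.75 and 8.68 and 7.97 at E6.5 (-2.96 ± 0.50, adjusted p = 0.00125). Etv5, an ETS factor gene that FGF induces, was bright everywhere, with 11.81 and 11.17 in ESC and 11.05 to 11.44 in tissue (0.26 ± 0.32, adjusted p = 0.58), and it was lower in ESC after scaling (-1.30 ± 0.30, adjusted p = 0.00757). Spry2, a further feedback inhibitor gene, was at 1.21 ± 0.43, adjusted p = 0.0549 and passed without epiblast E5.75 replicate 2 (adjusted p = 0.0201). Among the ligands, Fgf4, the autocrine FGF of ESC, read 9.25 and 9.37 on the ESC arrays, 6.23 and 7.24 at E5.75 and 5.55 and 6.08 at E6.5 (3.03 ± 0.30, adjusted p = 3.86e-05). Fgf5, the hallmark of the epiblast after implantation, read 3.27 and 3.44 on the ESC arrays, 8.45 and 9.00 at E5.75 and 8.90 and 9.03 at E6.5 (-5.49 ± 0.56, adjusted p = 4.47e-05), the second largest difference towards tissue of all named genes. Fgf15 and Flrt3, a modulator of FGF receptors, were also lower (-2.36 ± 0.47 and -1.29 ± 0.26), and 2 of 18 ligand and receptor genes were higher in ESC and 4 lower. The shares are 11.1% and 22.2%, against 12.7% and 13.2% of all genes.

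Core pluripotency genes were shared in part. Of 11 members, 7 were higher in ESC and 1 lower, with a median of 0.94 (4 higher and 2 lower after scaling, and 4 and 1 without ESC replicate 2). Nanog read 11.51 and 10.54 on the ESC arrays, 6.89 and 7.69 at E5.75 and 8.81 and 8.53 at E6.5 (3.04 ± 0.30, adjusted p = 3.82e-05), and the E5.75 arrays were below the E6.5 arrays. Sox2 was at 10.70 and 10.51 in ESC and between 9.48 and 9.90 in tissue, less than 2-fold apart (0.94 ± 0.21, adjusted p = 0.00658). It did not pass without ESC replicate 1 (adjusted p = 0.051) or after scaling (-0.29, adjusted p = 0.501). Pou5f1, which codes for Oct4, read 6.95 and 7.11 on the ESC arrays, 5.54 and 5.91 at E5.75 and 5.82 and 5.75 at E6.5 (1.27 ± 0.29, adjusted p = 0.00739), and did not pass without ESC replicate 2 (adjusted p = 0.0552). Tdgf1 (Cripto), a co-receptor gene for Nodal, was higher in ESC (2.76 ± 0.53). Lin28b, which blocks let-7 miRNAs, was lower (-2.26 ± 0.25). Dppa4 was at 8.25 and 7.82 in ESC and between 7.77 and 9.19 in tissue (-0.58 ± 0.31, adjusted p = 0.181; after scaling -1.48, adjusted p = 0.00441), against means of 5.11, 4.52 and 4.43 in EpiSC and the E5.75 and E6.5 rsEpiSC.

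Of 22 genes of the formative and primed epiblast, 16 were lower in ESC and none was higher (18 and 0 after scaling), and the median was -2.15. Otx2, a homeobox gene that drives the exit from the naive state, read 6.00 and 4.84 on the ESC arrays, 9.28 and 9.35 at E5.75 and 9.00 and 9.07 at E6.5 (-3.75 ± 0.28, adjusted p = 4.63e-06). Pou3f1 (Oct6) was at 5.47 and 4.81 in ESC and between 7.24 and 7.66 in tissue (-2.34 ± 0.25). Sox4 read 4.84 and 5.07 on the ESC arrays, 8.46 and 8.70 at E5.75 and 9.14 and 8.88 at E6.5, about 4 units apart (-3.84 ± 0.21, adjusted p = 6.04e-07). Grhl2, a regulator of epithelial genes, was also lower in ESC (-1.78 ± 0.27). In 12 of the 22 both ESC arrays were below all 10 other arrays, as in 4.51% of all genes. Fgf5 was far brighter in tissue (8.84) than in the cultured lines of the same origin (5.28, 3.98 and 6.31 in EpiSC and the E5.75 and E6.5 rsEpiSC). Foxd3 did not pass (0.42 ± 0.42, adjusted p = 0.482), nor did Nodal (0.99 ± 0.49, adjusted p = 0.152), which passed without ESC replicate 2 (adjusted p = 0.0404).

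The Nodal pathway, which patterns the epiblast, had 7 of 22 members higher in ESC and 1 lower, with a median of 0.07 (5 and 4 after scaling). Gdf3, a ligand of the family, read 8.87 and 7.48 on the ESC arrays, 5.59 and 5.89 at E5.75 and 4.53 and 5.15 at E6.5 (2.88 ± 0.38, adjusted p = 0.00023). Pcsk6, a protease gene that cleaves Nodal, differed by 2.48 ± 0.33, and Foxh1, a partner of the SMAD proteins, by 1.69 ± 0.39, which did not pass without ESC replicate 2 (adjusted p = 0.0595). Skil, a target of the pathway and a repressor of SMAD proteins, was lower in ESC (-2.20 ± 0.26). Lefty1 did not pass (0.72 ± 0.56, adjusted p = 0.361). In the BMP list 3 of 20 were higher and 2 lower (2 and 0 without epiblast E6.5 replicate 2), led by Bmp7 (1.44 ± 0.27) and Smad7 (1.34 ± 0.29). The BMP shares, 15% and 10%, were near those over all genes (12.7% and 13.2%). Smad7 did not pass after scaling. In the retinoid list 2 of 19 were higher and 2 lower (0 and 1 without ESC replicate 2). Each retinoid share was 10.5%, also near those over all genes. Crabp2, which binds retinoic acid in the cell, was lower in ESC on both arrays: 5.09 and 5.22 on the ESC arrays, 9.05 and 9.12 at E5.75 and 8.08 and 8.27 at E6.5 (-3.48 ± 0.22, adjusted p = 1.3e-06). It was brighter still in the other lines, with 9.37, 11.21 and 10.84 in EpiSC and the E5.75 and E6.5 rsEpiSC.

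Enzymes of DNA methylation were called in both directions: 4 of 12 were higher in ESC and 4 lower. Each is 33.3%, against 12.7% and 13.2% of all genes. The de novo methyltransferase gene Dnmt3b read 8.26 and 6.81 on the ESC arrays, 11.43 and 11.59 at E5.75 and 11.75 and 11.45 at E6.5 (-4.02 ± 0.48, adjusted p = 0.000127). Its level in tissue was above that of all 8 cultured arrays. Dnmt3a, the other de novo enzyme, was at 5.77 and 5.98 in ESC and between 7.15 and 7.38 in tissue (-1.36 ± 0.22). Their catalytically inactive partner Dnmt3l went the other way, at 9.03 and 7.47 on the ESC arrays, 5.22 and 4.69 at E5.75 and 5.24 and 4.44 at E6.5 (3.36 ± 0.41, adjusted p = 0.000156). Tet2, which oxidises methylcytosine, read 8.54 and 7.58 on the ESC arrays, 3.08 and 3.41 at E5.75 and 3.85 and 3.03 at E6.5 (4.72 ± 0.32, adjusted p = 2.08e-06), while Tet1 was bright in both groups and did not pass (0.69 ± 0.26, adjusted p = 0.0667). Tet1 passed without ESC replicate 2, epiblast E5.75 replicate 1 or epiblast E6.5 replicate 1 (adjusted p = 0.044, 0.0489 and 0.0452). The maintenance enzyme gene Dnmt1 was nearly level, at 9.46 and 9.24 in ESC and 9.03 to 9.31 in tissue (0.15 ± 0.17, adjusted p = 0.516), and was lower in ESC after scaling (-0.90 ± 0.17, adjusted p = 0.00177). Gadd45b, a stress gene linked to demethylation, had the largest difference of the list (5.36 ± 0.47). It was nearly as bright in EpiSC (10.18) as in ESC (10.32).

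Germline genes kept silent in somatic cells by DNA methylation are shown with the sequence before their start, because their promoters are rich in the CG dinucleotides that methylation acts on. Of 22 such genes, 21 had a promoter in the RefSeq table of GRCm38.p6. Their 300-base windows, from 250 bases before the start to 50 after it, held a median of 20 CG dinucleotides, against 7 over all 27025 promoters. The E-box CACGTG, searched on both strands, was in 10 of the 21 (47.6%) and in 7.24% of all promoters. The E2F motif TCCCGC, searched on both strands, was in 9 (42.9%) and in 20.1% of all. Both motifs contain CG, and promoters of like CG content were not compared. Among the 8 promoters of members that passed, 3 held CACGTG and 4 held TCCCGC. The promoters of the 3 members with the largest differences that passed follow, 5′ to 3′ on the strand of the gene and cut where the annotated gene begins, in lower case with matches of the motifs in capitals. Hormad1 lies at chr3:95559427-95559676 (plus strand), Tdrd12 at chr7:35537785-35537994 (minus strand) and Dazl at chr17:50293621-50293870 (minus strand).
Hormad1: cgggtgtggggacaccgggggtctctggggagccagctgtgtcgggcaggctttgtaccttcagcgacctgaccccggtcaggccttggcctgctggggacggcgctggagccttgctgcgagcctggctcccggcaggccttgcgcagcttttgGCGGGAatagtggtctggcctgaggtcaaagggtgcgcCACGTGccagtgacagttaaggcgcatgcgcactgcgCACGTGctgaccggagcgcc
Tdrd12: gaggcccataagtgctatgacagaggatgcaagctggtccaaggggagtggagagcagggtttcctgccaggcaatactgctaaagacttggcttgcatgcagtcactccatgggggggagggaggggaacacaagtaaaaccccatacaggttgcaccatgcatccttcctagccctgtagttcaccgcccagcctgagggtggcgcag
Dazl: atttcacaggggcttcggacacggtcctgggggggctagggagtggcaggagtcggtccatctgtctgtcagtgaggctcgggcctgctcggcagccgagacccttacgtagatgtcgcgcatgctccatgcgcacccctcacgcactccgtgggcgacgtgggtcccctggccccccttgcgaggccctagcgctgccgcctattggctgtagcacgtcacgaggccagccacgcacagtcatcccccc
The Hormad1 window held 2 E-boxes and 1 E2F motif, and no match stood in those of Tdrd12 and Dazl. Their full windows held 24, 9 and 28 CG dinucleotides in the order shown.

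Of these 22 germline genes, 5 were higher in ESC and 4 lower, and the median was 0.09. The shares are 22.7% and 18.2%, against 12.7% and 13.2% of all genes. Tdrd12, of the piRNA pathway, read 7.74 and 7.32 on the ESC arrays, 5.54 and 5.95 at E5.75 and 5.22 and 4.73 at E6.5 (2.17 ± 0.23, adjusted p = 6.12e-05). Dazl, an RNA-binding protein gene of germ cells, was at 5.06 and 6.15 in ESC and between 2.94 and 4.18 in tissue (1.93 ± 0.30, adjusted p = 0.000682). Hormad1, a meiotic axis gene, differed within both groups, at 7.92 and 5.30 on the ESC arrays, 6.40 and 5.14 at E5.75 and 3.54 and 2.04 at E6.5 (2.33 ± 0.63, adjusted p = 0.019), so the groups overlapped. It did not pass without ESC replicate 1 (adjusted p = 0.255) or epiblast E6.5 replicate 2 (adjusted p = 0.0557) and had an adjusted p of 0.00182 without ESC replicate 2. Piwil2, also of the piRNA pathway, was higher in ESC (1.72 ± 0.35). The members lower in ESC were dim, such as Sycp2, a gene of the synaptonemal complex (2.38 in ESC and 3.71 in tissue). A pattern seen after the values were known was that 12 of the 22 had all 6 ESC and tissue arrays above the 6 arrays of EpiSC and rsEpiSC, as did 2.32% of all autosomal genes. Rpl10l, a testis-type copy of a ribosomal protein gene, was one: it read 8.17 and 7.21 on the ESC arrays, 8.94 and 8.15 at E5.75 and 6.56 and 6.48 at E6.5 (0.16 ± 0.38, adjusted p = 0.779) and had means of 2.68, 2.17 and 1.78 in EpiSC and the E5.75 and E6.5 rsEpiSC. Its sequence is close to that of its parent gene, and whether the probe set tells them apart was not tested.

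Of 13 genes of primordial germ cells, the founders of the germline, 7 were higher in ESC and 1 lower, with a median of 0.95. Tcl1, a cofactor of the kinase AKT, read 8.69 and 7.36 on the ESC arrays, 3.45 and 3.66 at E5.75 and 3.54 and 4.01 at E6.5 (4.36 ± 0.32, adjusted p = 3.59e-06). Alpl, which codes for the alkaline phosphatase used to stain both ESC and germ cells, was at 10.56 and 11.09 in ESC and between 6.86 and 7.66 in tissue (3.54 ± 0.28). Prdm14, a repressor that keeps de novo methylation low, was also higher (2.65 ± 0.37), as was the receptor gene Kit (2.14 ± 0.37). Nanos3 did not pass (0.34 ± 0.28, adjusted p = 0.385).

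Of 27 genes of the primitive streak, where gastrulation begins, 5 were lower in ESC and 2 higher, near the shares over all genes (13.2% and 12.7%). The counts were 1 and 1 without ESC replicate 2 and 3 and 1 without epiblast E6.5 replicate 1. Eomes, a T-box gene of the early streak, read 5.19 and 5.32 on the ESC arrays, 7.14 and 7.35 at E5.75 and 8.88 and 8.97 at E6.5 (-2.83 ± 0.23, adjusted p = 7.26e-06). Mixl1, a homeobox gene of mesendoderm, was near ESC level on the E5.75 arrays and higher at E6.5: 4.31 and 4.35 on the ESC arrays, 4.28 and 3.56 at E5.75 and 6.95 and 7.88 at E6.5. Its difference of -1.34 ± 0.32, adjusted p = 0.00959 did not pass without ESC replicate 1 (adjusted p = 0.0547) or replicate 2 (adjusted p = 0.0523). Snai1, which represses E-cadherin, was higher in ESC (1.64 ± 0.30), and Gsc did not pass (-0.07 ± 0.23, adjusted p = 0.84). Among 19 anterior and neural ectoderm genes, Sox1 and Ncam1 were higher in ESC (1.43 ± 0.27 and 1.51 ± 0.42) and Fezf2 lower (-1.34 ± 0.30). Their ESC means ran from 3.51 to 6.25. Ncam1 and Fezf2 did not pass without ESC replicate 1 (adjusted p = 0.268 and 0.0543).

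Adhesion and matrix genes differed in both directions. The cadherin genes stood apart: Cdh2 (N-cadherin) read 4.85 and 2.55 on the ESC arrays, 8.04 and 8.59 at E5.75 and 7.09 and 7.18 at E6.5 (-4.02 ± 0.52, limma adjusted p = 0.00023). Cdh1 (E-cadherin) read 10.06 and 10.25 on the ESC arrays, 7.88 and 9.24 at E5.75 and 9.50 and 9.16 at E6.5. It did not pass although its groups did not overlap (1.21 ± 0.71, limma adjusted p = 0.226). Its standard error pools the spread over all groups of the study, EpiSC and rsEpiSC included. The epithelial splicing factor gene Esrp1 was lower in ESC, at 4.86 and 5.92 against 8.33 to 8.70 in tissue (-3.14 ± 0.55, adjusted p = 0.00167), and so was Pkp2, a desmosome gene (-2.16 ± 0.26). In all, 5 of 23 adhesion genes were higher in ESC and 4 lower (21.7% and 17.4%, against 12.7% and 13.2% of all genes). Of 20 tight junction genes 2 were higher and 3 lower (10% and 15%), near the shares over all genes. The counts were 2 and 7 after quantile normalization and after scaling, and 3 and 5 without epiblast E5.75 replicate 2. Cldn4 was higher in ESC (3.48 ± 0.34). Tjp1, a scaffold of the junction, was lower (-1.24 ± 0.26) and did not pass without ESC replicate 2 (adjusted p = 0.0605).

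Genes of the basement membrane were higher in ESC in 11 of 25 cases and lower in 2 (median 0.76). Nid1, which links laminin to collagen IV, had the largest difference of all named genes: it read 9.12 and 10.59 on the ESC arrays, 3.06 and 2.38 at E5.75 and 3.84 and 3.46 at E6.5 (6.67 ± 0.42, adjusted p = 1.3e-06). The laminin chain gene Lama1 read 7.54 and 7.93 on the ESC arrays, 4.12 and 3.95 at E5.75 and 4.13 and 3.85 at E6.5 (3.72 ± 0.24, adjusted p = 1.36e-06). Nid2, Hspg2 (perlecan) and Lama5 differed by 2.61 ± 0.22, 2.49 ± 0.22 and 1.93 ± 0.21. Fn1, from the adhesion list, codes for fibronectin and was at 10.81 and 11.61 in ESC and between 6.31 and 7.87 in tissue (4.04 ± 0.27). In 7 of the 25 all 8 cultured arrays were above all 4 tissue arrays (7.55% of all genes). The receptor chain genes Itgb1 and Itga6 did not pass (0.47 ± 0.20, adjusted p = 0.104, and 0.76 ± 0.26, adjusted p = 0.0528), but did without epiblast E5.75 replicate 2 (adjusted p = 0.044 and 0.0199).

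For some genes the other cultured lines stood with ESC. All 8 cultured arrays lay above all 4 tissue arrays for 1590 of the 21062 autosomal genes (7.55%), and below them for 2088 (9.91%). The 6 lists with the largest shares above tissue were those of oxidative phosphorylation (17 of 32), amino acids (15 of 30), ribosomal proteins (9 of 23), p53 targets (6 of 16), the basement membrane (7 of 25) and glycolysis (8 of 30). Immediate early genes had 3 of 22. For these genes the higher signal in ESC was shared by EpiSC and rsEpiSC, which come from the epiblast after implantation. Its cause was not tested. The counts of cultured arrays above tissue were not made again after scaling the arrays. Scaling did change how many members passed in several lists, as given for each list below. For the basement membrane list above, 10 members were higher in ESC after scaling, against 11 before.

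**Figure D3:**
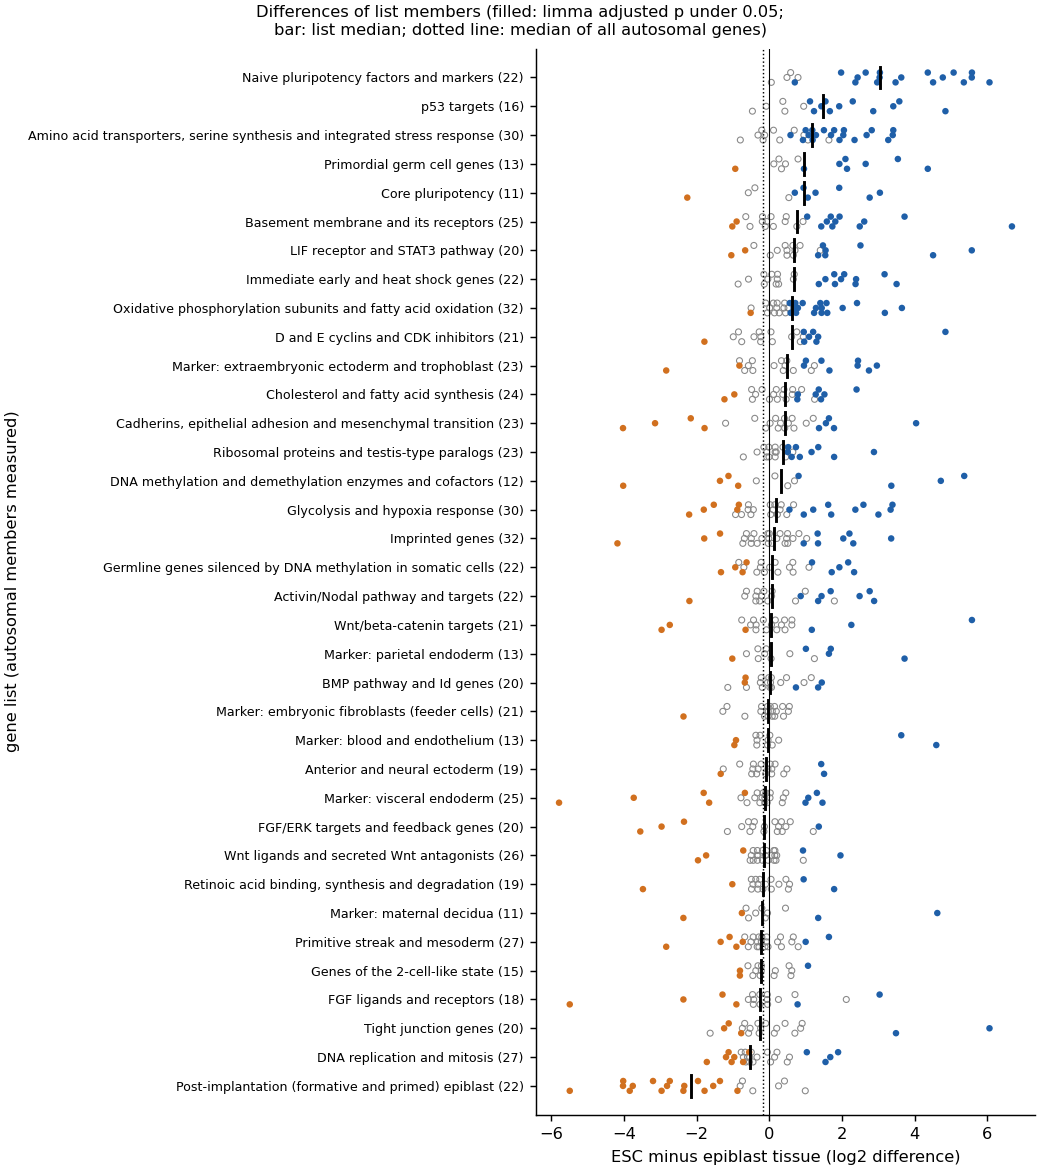
Log2 difference ESC minus epiblast tissue (horizontal) of each autosomal member of the 36 gene lists (vertical, with the number of members), ordered by median: filled points passed limma (blue higher, orange lower in ESC), open points did not, the short bar is the list median and the dotted line the median of all autosomal genes. The naive list stands at the top with a median of 3.04 and the formative and primed list at the bottom with -2.15.

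In the list of amino acid transport, serine synthesis and the integrated stress response, 19 of 30 were higher in ESC and none lower (12 and 5 after scaling), with a median of 1.19. In 15 all cultured arrays were above tissue. Asns, the asparagine synthetase gene, read 10.87 and 10.81 on the ESC arrays, 7.91 and 8.19 at E5.75 and 7.79 and 8.20 at E6.5 (2.82 ± 0.18, adjusted p = 1.36e-06), and its means in EpiSC and the E5.75 and E6.5 rsEpiSC were 10.27, 10.02 and 10.28. Ddit3, which codes for the stress factor CHOP, and Sesn2, a sensor of leucine and stress, differed by 3.40 ± 0.50 and 3.41 ± 0.47. The arginine transporter gene Slc7a1 was at 9.03 and 8.49 in ESC and between 5.19 and 5.75 in tissue (3.27 ± 0.32). Shmt2, which links serine to the folate cycle in mitochondria, differed by 2.68 ± 0.23. The transporter genes Slc38a1 and Slc38a2 did not pass (-0.31 ± 0.17, adjusted p = 0.195, and -0.17 ± 0.28, adjusted p = 0.674), and both were lower in ESC after scaling (adjusted p = 0.000269 and 0.00891).

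Of 16 targets of p53, 11 were higher in ESC and none lower (7 and 0 after scaling), with a median of 1.49. Cdkn1a, which codes for the cell cycle inhibitor p21, read 10.98 and 10.82 on the ESC arrays, 5.25 and 6.96 at E5.75 and 6.09 and 5.92 at E6.5 (4.84 ± 0.40, adjusted p = 9.8e-06) and had means of 10.95, 9.64 and 8.84 in EpiSC and the E5.75 and E6.5 rsEpiSC. Trp53inp1, a stress gene, differed by 3.58 ± 0.47, and Btg2, which slows division, read 8.67 and 7.98 on the ESC arrays, 4.78 and 5.88 at E5.75 and 5.45 and 5.75 at E6.5 (2.86 ± 0.43, adjusted p = 0.000576). The apoptosis gene Pmaip1 (Noxa) did not pass (-0.46 ± 0.48, adjusted p = 0.493), but was lower in ESC without ESC replicate 2 (adjusted p = 0.0185). Of 21 cyclins and CDK inhibitors 7 were higher and 1 lower (4 and 3 after scaling). Replication and mitosis genes were lower in ESC in 7 of 27 cases and higher in 4. The counts were 13 and 4 after quantile normalization, 20 and 3 after scaling, and 3 and 4 without ESC replicate 2. Mki67, the proliferation marker Ki-67, read 8.07 and 7.34 on the ESC arrays, 9.50 and 8.83 at E5.75 and 9.83 and 9.54 at E6.5 (-1.72 ± 0.24, adjusted p = 0.000416), and Kif11, a mitotic motor gene, was also lower (-1.19 ± 0.23). On the higher side, Cdt1, a licensing factor gene, was at 1.89 ± 0.33, Gins2, of the replicative helicase, at 1.68 ± 0.22 and Tk1, the thymidine kinase gene, at 1.55 ± 0.30. Of 22 immediate early and heat shock genes, 10 were higher and none lower (9 and 2 after scaling), among them the small heat shock genes Hspb8 (3.5 ± 0.41) and Hspb1 (3.17 ± 0.20), Nr4a1 (2.37 ± 0.26) and Dusp1 (2.06 ± 0.26).

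Of 32 genes of oxidative phosphorylation and fatty acid oxidation, 18 were higher in ESC and 1 lower, but 5 were higher and 7 lower after scaling. All cultured arrays were above tissue in 17. Cox4i1, a subunit of cytochrome oxidase, read 11.29 and 11.43 on the ESC arrays, 8.36 and 9.58 at E5.75 and 8.60 and 9.25 at E6.5 (2.41 ± 0.27, adjusted p = 8.66e-05), and its means in EpiSC and the E5.75 and E6.5 rsEpiSC were 11.62, 11.39 and 11.40. Cox6b2, a testis-type subunit, differed by 3.65 ± 0.30, and Uqcrc1, of the cytochrome reductase, by 2.02 ± 0.17. Cpt1a, which carries fatty acids into mitochondria, read 7.75 and 7.73 on the ESC arrays, 4.64 and 4.47 at E5.75 and 4.47 and 4.66 at E6.5 (3.18 ± 0.22, adjusted p = 2.22e-06). It was nearly as bright in EpiSC (7.23), but not in the rsEpiSC from E5.75 (4.11) or E6.5 (3.86). Glycolysis and hypoxia genes divided, with 10 of 30 higher and 5 lower (7 and 12 after scaling, and 8 and 1 without ESC replicate 2). The glucose transporter gene Slc2a3 read 10.41 and 10.59 on the ESC arrays, 6.39 and 7.37 at E5.75 and 7.69 and 6.99 at E6.5 (3.39 ± 0.29, adjusted p = 1.22e-05), and Pfkp and Pfkm, phosphofructokinase genes, differed by 3.00 ± 0.23 and 2.37 ± 0.36. Ndrg1 and Ddit4, which hypoxia induces, differed by 3.34 ± 0.32 and 2.59 ± 0.32. Ddit4 was brighter still in the other lines (7.95, 7.97 and 8.21 in EpiSC and the E5.75 and E6.5 rsEpiSC, and 6.96 in ESC). Slc2a1, the other main glucose transporter gene, did not pass (0.11 ± 0.32, adjusted p = 0.821) and was lower in ESC after scaling (-1.26). Hk2, a hexokinase gene, did not pass (0.22 ± 0.28, adjusted p = 0.578). Cholesterol and fatty acid genes had 7 of 24 higher and 2 lower (2 and 5 after scaling, and 4 and 1 without epiblast E6.5 replicate 1). Srebf2, the master regulator of the cholesterol genes, read 8.42 and 9.40 on the ESC arrays, 5.49 and 7.50 at E5.75 and 6.52 and 6.52 at E6.5 (2.40 ± 0.45, adjusted p = 0.00243), while its targets Hmgcs1 and Sqle did not pass (-0.20 ± 0.21, adjusted p = 0.501, and -0.46 ± 0.25, adjusted p = 0.19) and were lower in ESC after scaling. Of 23 ribosomal protein genes 9 were higher and none lower (2 and 10 after scaling), so no direction is given for them.

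**Figure D4:**
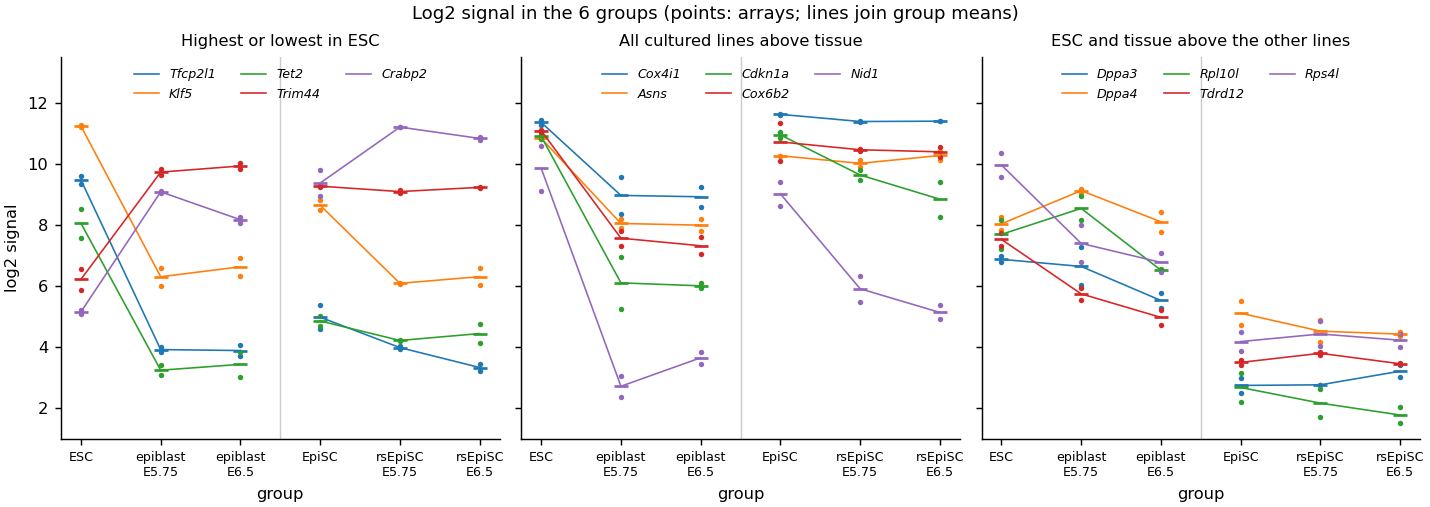
Log2 signal (vertical) of 15 genes in the 6 groups of the study (horizontal), points for arrays and lines joining group means, in 3 panels by pattern. Tfcp2l1 and Klf5 are highest in ESC, Cox4i1 and Asns are low only in tissue, and Dppa3, Dppa4 and Rpl10l are shared by ESC and tissue and low in EpiSC and rsEpiSC.

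By size alone, the 15 genes with the largest differences towards ESC ran from 4.89 ± 0.41 (Mylpf, a myosin light chain gene) to that of Nid1. Next to the naive genes named above they held Laptm5, a lysosomal membrane gene, at 10.02 and 9.61 on the ESC arrays, 4.12 and 4.64 at E5.75 and 4.65 and 4.34 at E6.5 (5.38 ± 0.33, adjusted p = 1.1e-06), Arl14epl (5.96 ± 0.26), Fetub, a secreted protease inhibitor gene (5.66 ± 0.50), Aqp3, a channel for water and glycerol (5.38 ± 0.42), and Lrrc34 (5.11 ± 0.29). In 12 of the 15 both ESC arrays were above all 10 others (5.05% of all autosomal genes). The way the 15 were picked had already set their ESC arrays above all 4 tissue arrays, so 5.05% is not a like share. Of the 3574 autosomal genes with both ESC arrays above all 4 tissue arrays, 1063 had them above all 10 others. The 15 genes with the largest differences towards tissue ran from -3.61 ± 0.20 (Trim44) to -5.78 ± 0.32 (Car4, a carbonic anhydrase gene). Car4 read 4.11 and 4.43 on the ESC arrays, 9.49 and 10.28 at E5.75 and 10.06 and 10.38 at E6.5. Its mean was 4.71 in EpiSC, and the rsEpiSC from E5.75 and E6.5 had 6.42 and 9.57. Nnat, an imprinted gene of neuronal tissue, read 5.05 and 4.74 on the ESC arrays, 9.70 and 8.66 at E5.75 and 8.71 and 9.23 at E6.5 (-4.18 ± 0.57, adjusted p = 0.000317). Gap43, a growth cone gene, was at -3.83 ± 0.32, Rgs2, a regulator of G protein signals, at -3.78 ± 0.56, and Syt4, a synaptotagmin gene, at -3.67 ± 0.43. In the imprinted list as a whole 7 of 32 were higher in ESC and 3 lower (5 and 5 after scaling, and 4 and 2 without ESC replicate 2), with Peg10 at 3.35 ± 0.55, Plagl1 at 2.31 ± 0.30 and Phlda2 at 2.20 ± 0.35 on the higher side. The imprinted shares were 21.9% and 9.38%, against 12.7% and 13.2% of all genes. Rian, a maternally expressed noncoding RNA gene, did not pass (0.65 ± 0.33, adjusted p = 0.16). It was bright in ESC and tissue (8.55 and 7.90) and dim in EpiSC (4.49).

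Markers of other cells the tissue or the cultures could hold were read on the same arrays. Of 25 markers of visceral endoderm, the layer around the epiblast, 5 were higher in tissue and 4 in ESC. These are 20% and 16%, against 13.2% and 12.7% of all genes. The mean signal of the list per array ran from 5.09 to 5.16 in tissue and from 4.69 to 4.70 in ESC. Its defining genes Ttr and Afp were dim in tissue (means of 4.51 and 4.02) and did not pass (0.45 ± 0.34, adjusted p = 0.338, and -0.61 ± 0.24, adjusted p = 0.0754). Afp was higher in tissue without epiblast E5.75 replicate 2 or E6.5 replicate 2 (adjusted p = 0.0234 and 0.0464). Car4, Spink1 and Lrp2 were the brightest of the 5 in tissue, and the part of visceral endoderm in these values was not tested. Of 23 markers of extraembryonic ectoderm and trophoblast 8 were higher in ESC and 2 in tissue. Eomes, given above with the streak genes, was 1 of these 2. Tead4, Esrrb and Elf3, which ESC also express, were among the 8, and the defining genes Cdx2 and Elf5 had means of 3.83 and 3.68 in tissue and did not pass, though Elf5 was higher in tissue without epiblast E6.5 replicate 2 (adjusted p = 0.0031). Of 21 fibroblast markers, which would show feeder cells, none was higher in ESC and Dcn was higher in tissue (-2.36 ± 0.26). The counts were 1 and 2 without ESC replicate 1, 0 and 3 without epiblast E5.75 replicate 1 and 0 and 2 without epiblast E6.5 replicate 1. Col1a1 was at 4.99 and 4.81 in ESC and between 4.55 and 4.84 in tissue. Of 11 decidua and 13 blood and endothelium markers, 2 were higher in ESC and 2 in tissue in each list (2 and 0 for blood and endothelium without ESC replicate 2). Of 13 parietal endoderm markers 4 were higher in ESC and 1 in tissue (3 and 0 without ESC replicate 1). Lama1 was one of the 4. Of 15 genes of the 2-cell-like state, which a few cells in ESC cultures enter, 1 was higher in ESC and 2 lower (0 and 1 without ESC replicate 1). The embryonic globin genes Hbb-y and Hba-x, at 3.08 and 3.13 in tissue, and the leukocyte gene Ptprc, at 2.80, were dim. Pecam1, an endothelial marker that ESC share, was higher in ESC (3.63 ± 0.23), and so were the macrophage marker gene Cd68 (4.59 ± 0.54) and, from the decidua list, Cryab, a small heat shock gene (4.62 ± 0.41). Both were as bright or brighter in EpiSC (9.40 and 10.90, against 9.40 and 9.33 in ESC).

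The 2 ESC arrays were not alike in every pathway. Among 675 list members, 21 differed by at least 2 units between them, 18 of them higher on replicate 1 (179 of all 21062 genes, 100 higher on replicate 1). These genes were named after their values were seen. Lefty2, a Nodal target, had signals of 8.19 and 4.0 on ESC replicates 1 and 2, and Tubb3, a neuronal tubulin gene, had 6.98 and 3.52. Dusp6, Id3 and Hormad1 were also higher on replicate 1, with Id3 at 6.81 and 4.23. Hspa1a, a heat shock gene, was higher on replicate 2 (4.11 and 7.24), as was Gata2 (5.22 and 7.73). Leaving out 1 ESC array changed calls: Lefty2 was higher in ESC without replicate 2 (3.89), Tubb3 and Id3 were lower without replicate 1 (-2.99 and -2.43), and Hspa1a did not pass without replicate 2 (0.41). The gaps (replicate 1 minus replicate 2) of the 22 naive pluripotency genes ran from -0.51 for Tbx3 to 2.51 for Manba, a lysosomal mannosidase gene. Among them 5 were higher on replicate 1 by at least 1 unit, Zfp42 and Tcl1 included, and none on replicate 2, while Tfcp2l1, Klf4, Klf5 and Esrrb had gaps of -0.27, -0.16, -0.05 and -0.17. A difference in the state of these cultures was not tested.

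**Figure D5:**
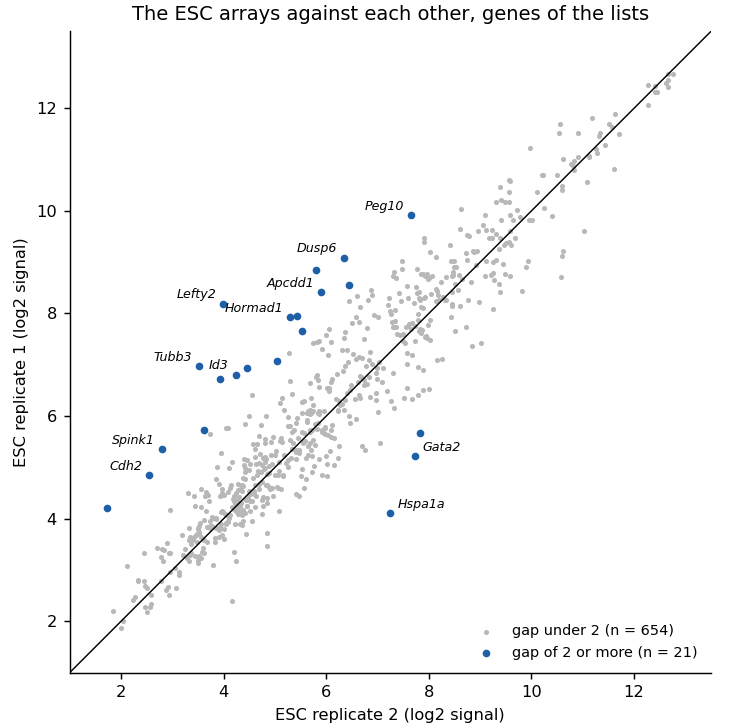
Log2 signal of 675 genes of the lists on ESC replicate 1 (vertical) and replicate 2 (horizontal), with the line of equal signal and the 21 genes that differ by 2 or more in blue. Most of those lie above the line, such as Lefty2 and Dusp6, and Hspa1a and Gata2 lie below it.

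Taken by stage, 4515 genes passed between ESC and epiblast E5.75 (21.4%; 2315 or 11% higher in ESC and 2200 or 10.4% lower, or 1606 and 2815 after scaling) and 4116 between ESC and epiblast E6.5 (19.5%; 2085 or 9.9% higher and 2031 or 9.64% lower, or 1468 and 2889 after scaling). Both use the same ESC arrays. Without ESC replicate 2 they were 2785 and 2724, and without epiblast E5.75 replicate 1 the first was 2995. Between the tissue stages themselves 5 genes passed (0.0237%; 3 or 0.0142% higher at E6.5 and 2 or 0.0095% lower), and 2651 had an unadjusted p under 0.05. The count was 147 without epiblast E5.75 replicate 2, 21 without E5.75 replicate 1, 2 without E6.5 replicate 1 and 0 without E6.5 replicate 2 (2491 with an unadjusted p under 0.05). Mixl1 was higher at E6.5 (3.49 ± 0.37, adjusted p = 0.0128) and Dppa2 lower (-2.90 ± 0.40, adjusted p = 0.0468), and the remaining genes were Daam1 and Mir3070a (higher at E6.5) and H4c9 (lower), named after their values were seen. Dppa2, a chromatin factor of pluripotency, read 9.21 and 8.02 on the ESC arrays, 7.88 and 8.39 at E5.75 and 5.66 and 4.82 at E6.5. ESC minus epiblast E5.75 did not pass (0.47 ± 0.40, adjusted p = 0.409), and Dppa2 was higher in ESC than at E6.5 (3.37 ± 0.40, adjusted p = 0.000191).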

How the data were processed

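The deposited values are log2 signals of 41345 probe sets on 12 arrays, which the authors computed by RMA in oligo, according to the submitters' processing notes (no version is given); the genome build is not given in the sources used here. RMA corrects the background, brings all arrays to a common distribution and sums the probes of a set, which narrows small signals. The labels' protocol names a human array, but the probe set names match a mouse table, from which 23521 probe sets with 1 gene were named (1814 had several and 16010 none); the probe set with the highest mean stood for a gene. Differences came from limma 3.58.1 in R 4.3.3, with 6 group means over all 12 arrays, a variance trend and Benjamini-Hochberg adjustment over 22180 genes. On simulated data 67, 67 and 66 genes were changed by 1, 2 and 3 log2 units. The fit recovered 28.4%, 79.1% and 98.5% of them and made 10 false calls. All other genes were left unchanged, and the noise of a gene was the same in every group. Neither holds for the real arrays, so these shares need not apply to them. The number of arrays limits the precision.

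Named were the 15 highest and 15 lowest genes that passed without overlap, from each of the 36 lists the 5 passing members with the largest differences and the 2 others with the highest signal, and 22 genes in any case, such as Pou5f1 and Fgf5. Outside that rule, Nr5a2, Spic, Stra8, Ttr, Afp, Cdx2, Elf5, Col1a1, Hba-x, Hbb-y, Ptprc, Lefty2, Id3, Hspa1a, Daam1, H4c9, Mir3070a, Manba and Sall4 were named after their values were seen. Members and lists were chosen with earlier results of these data known. Same-numbered replicates of the groups compared did not deviate together (r = -0.04, -0.014 and 0.024), and the main fit did not pair the arrays. Whether equal numbers mark a shared preparation was not tested. Alternatives covered the replicate block, the arrays in the fit, each of the 6 arrays left out, the normalization, a signal minimum, the probe set per gene, the variance model and the tissue arm. Promoter windows were RefSeq's on GRCm38.p6.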

Additional observations from a re-analysis of the deposited data

Results flagged for a closer look

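For 5 genes the difference from ESC was not the same at both stages of the tissue, by the test of epiblast E6.5 against epiblast E5.75 (limma, adjusted over all genes). Mixl1 was higher at E6.5 by 3.49, Daam1, which acts in planar cell polarity, by 2.13 and Mir3070a by 2.07. Dppa2 differed by -2.9 and the histone gene H4c9 by -2.54. Of these, Mixl1 read 4.28 and 3.56 at E5.75 and 6.95 and 7.88 at E6.5, so the arrays of each stage lay together. The value of Mir3070a rests on a single probe set for a small RNA, and H4c9 has near-identical copies, so its probe set may read several genes. The number of genes passing between the stages moved between 0 and 147 when 1 array was left out.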

How the results depend on the processing

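The count of 5445 genes between ESC and tissue was 2860 in a fit on the 6 arrays alone and 3149 to 6484 when 1 array was left out. ESC against epiblast E5.75 gave 1975 on the 6 arrays, 2162 with array weights and 2785 to 5171 with 1 array left out, and against E6.5 2071 on the 6 arrays and 2724 to 4979. Between the stages the count of 5 became 1 with the replicate block, 0 on the 6 arrays (1388 genes with an unadjusted p under 0.05), 12 after quantile normalization, 33 after scaling, 1 over every probe set, 0 with array weights (1234) and 0 to 147 with 1 array left out. With the replicate number as a block 5238 genes passed between ESC and tissue, and the pairing it assumes is not borne out by the deviations. The count of non-overlapping genes stayed within 1.5 times of 8645 (6957 to 8656). Of 180 named genes that passed, 127 had no alternative among the 16 in which they kept their sign but no longer passed. That count still holds 2 genes whose sign turned after scaling. Rps3 did not pass there (limma adjusted p = 0.665), and Rpl8 passed in the opposite direction. After scaling each array to 1 interquartile range the sign turned for Sox2 (-0.29), Sall4 (-0.091), Rps3 (-0.13) and Rpl8 (-0.64), which had passed as higher, and genes that had not passed were lower in ESC: Etv5 (-1.30), Smad2 (-0.76), Dnmt1 (-0.90), Pkm (-1.16), Slc2a1 (-1.26), Cox7a2 (-1.08), Ndufb8 (-0.70) and Hsp90aa1 (-0.65). Scaling stretches the narrower tissue arrays, so bright genes move towards tissue by its construction. The median difference over all genes was -0.08 after scaling and -0.06 after quantile normalization. Signals under 5 lie near the background of the arrays, and differences there are limited by it. The cause of the other changes was not tested.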
